A study of Mus musculus with 6 samples.

Results

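The genes described here carry the insulin signal from the receptor at the cell surface to the kinase Akt, and they were followed in 3T3-L1 adipocytes kept in leukemia cell conditioned media (LCM). A list of 10 genes was used, which were Insr, Irs1, Irs2, Pik3r1, Pik3r3, Pik3ca, Akt1, Akt2, Grb10 and Grb14. A row of the value table counted for a gene when the array annotation named that gene alone. By this rule 8 of the 10 genes were measured, among 14860 genes in all, each by 1 row. No row of the annotation names Irs2 or Akt2, so these genes were not analysed here. 3T3-L1 is a mouse pre-adipocyte line, which was differentiated over 7 days and used under 6 passages. Control cultures (3 arrays) were kept in regular media, and LCM cultures (3 arrays) were kept for 24 hours in medium that leukemia cells had conditioned for 48 hours. Per the labels, the conditioning cells were 8093, a mouse line of Ph+ acute lymphoblastic leukemia (ALL), grown in RPMI1640 with serum, IL-3 and beta-mercaptoethanol, whereas the methods describe LCM made with BV173, a human ALL line. The adipocyte line is a single clonal line, the arrays are described as biological replicates, and neither source ties the regular media of the control arrays to a recipe. The labels say that the adipocytes were maintained in RPMI1640 with serum, whereas the methods culture the 3T3-L1 line in high-glucose DMEM and condition LCM in RPMI1640. The LCM arrays can therefore differ from the controls in base medium and its nutrients, in additives and in what the leukemia cells released, and these cannot be told apart.

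Insulin binds its receptor, a tyrosine kinase encoded by Insr, and the receptor phosphorylates docking proteins such as IRS1. Class IA PI3K, a dimer of a regulatory subunit (from Pik3r1 or Pik3r3) and a catalytic subunit (from Pik3ca), binds to IRS1 through the SH2 domains of its regulatory subunit and makes the membrane lipid PIP3. PIP3 recruits Akt, which in fat cells drives uptake of glucose through the transporter GLUT4, restrains lipolysis and keeps FoxO transcription factors out of the nucleus. GRB10 and GRB14 are adaptors that bind the active receptor and inhibit it.

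Expression is given on the log2 scale, as summarised by the authors with RMA, and array medians ranged from 7.60 to 7.68. Over all rows, the correlation between arrays was 0.990 to 0.994 within LCM and 0.980 to 0.987 within control, where control replicate 2 stood farthest from the rest. Of 10 markers of the differentiated adipocyte, 9 lay above the median level of all genes, and leptin (Lep) was dim at a mean log2 value of 5.66. Their mean log2 value was 11.39 to 11.51 on control arrays and 11.05 to 11.16 on LCM arrays. At an adjusted p under 0.05 from limma, 3 of the 10, Adipoq, Cd36 and Cidec, fell, beside 1.97% of all genes. The median log2 change of the 10 was -0.43, and 9 lay below 0. On 8 of them every LCM array lay below every control array, where 14.7% of all genes did so. Slc2a4, which encodes GLUT4, is also on this marker list and had a log2 change of 0.08. The mean log2 value of 8 pre-adipocyte markers was 10.91 to 11.08 on control arrays and 10.85 to 11.01 on LCM arrays, and none of the 8 passed. Of 7 measured markers of B cell precursors, Ptprc, Dntt and Vpreb3 lay below the lower quartile of genes and none passed, whereas Ebf1, which adipocytes also express, was bright. In bulk cultures, fewer cells of a type and less RNA per cell cannot be told apart, and the part of the lower adipocyte markers in the results below was not tested.

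In adipocytes kept in LCM, Pik3r3 and Irs1 fell, and none of the other 6 measured genes from Insr to Akt1 passed the test (adjusted p under 0.05 from limma, adjusted over 14860 genes, n = 3 arrays per group). The background was 1.97% of all genes lower and 2.29% higher at the same threshold. Over all genes 53.9% of the calls were higher, and 36.2% with the median of each array set equal. Pik3r1 lay just outside the threshold on the same side, and Pik3ca was the measured gene with the highest log2 change, 0.23. On 3 genes (Irs1, Pik3r1 and Pik3r3) every LCM array lay below every control array, where 14.7% of all genes did so, and on Pik3ca every LCM array lay above every control array, where 12.8% did. The median log2 change of the 8 genes was -0.09, beside -0.03 for all genes. The study itself listed Pik3r3, Pik3r1 and Pik3ca among the genes it picked from these arrays, so their directions are not independent evidence.

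**Figure D1:**
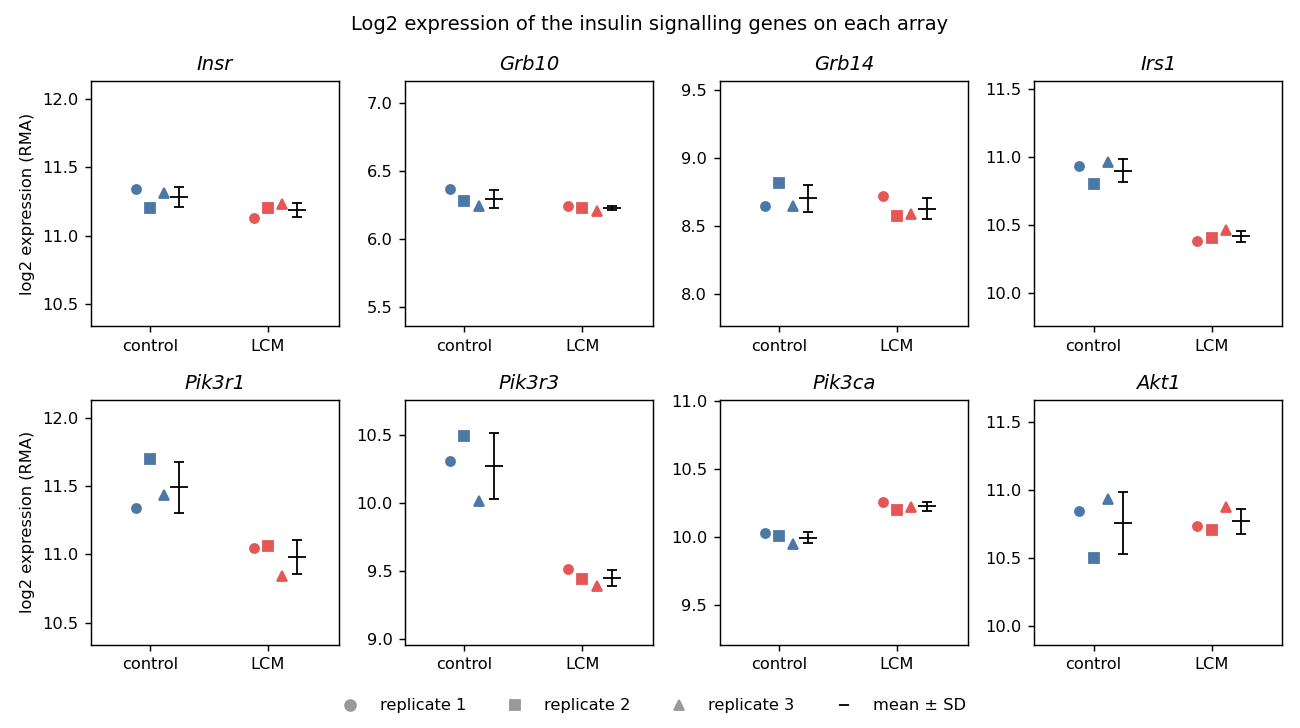
Log2 expression of the 8 measured genes on each array, with control arrays in blue and LCM arrays in red, a marker shape per replicate number and the mean ± SD (n = 3) in black; every panel spans the same log2 range, but levels of different genes cannot be set against each other. The LCM points lie below all control points for Irs1, Pik3r1 and Pik3r3 and above them for Pik3ca, and the groups overlap for Insr, Grb10, Grb14 and Akt1.

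At the receptor, the groups overlapped. Insr had log2 values of 11.34, 11.20 and 11.31 on the control arrays and 11.13, 11.20 and 11.23 on the LCM arrays. The change was -0.10 on the log2 scale (95% confidence interval -0.27 to 0.08, adjusted p = 0.532 from limma), and the interval corresponds to a fold between 0.828 and 1.05. The inhibitory adaptors gave intervals of about the same width. Grb10 read 6.37, 6.28 and 6.24 in control and 6.24, 6.23 and 6.21 in LCM, a dim signal, since 28.5% of genes had a lower mean. Its log2 change was -0.07 (95% confidence interval -0.23 to 0.09, adjusted p = 0.650 from limma). Grb14 read 8.65, 8.82 and 8.65 in control and 8.72, 8.58 and 8.59 in LCM, with a log2 change of -0.08 (95% confidence interval -0.27 to 0.12, adjusted p = 0.680 from limma). In the main fit, the single-gene intervals of these 3 genes reach 0.27 on the log2 scale in the lower direction and 0.12 in the higher. With array medians set equal, the log2 changes of Insr, Grb10 and Grb14 were -0.15, -0.12 and -0.12, so the limits depend on the scaling.

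Irs1, the docking protein through which the receptor reaches PI3K, was lower on every LCM array. The control arrays read 10.93, 10.80 and 10.96 and the LCM arrays 10.38, 10.40 and 10.46. The lowest control stood 0.33 above the highest LCM array, and the LCM arrays lay close together (10.42 ± 0.04, SD, n = 3, against 10.90 ± 0.09, SD, n = 3). Irs1 fell by 0.48 on the log2 scale, which is 1.39-fold (standard error 0.08, adjusted p = 0.0187 from limma). Irs1 passed in 1 of the 6 subsets that left out a single array. In the other subsets, calls over all genes were also fewer than with all arrays. Without control replicate 2 the adjusted p was 0.00935, and it was 0.0750 without control replicate 1, 0.0577 without control replicate 3, and 0.0946, 0.106 and 0.0821 when LCM replicate 1, 2 or 3 was dropped, with a log2 change between -0.53 and -0.45 throughout.

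Of the PI3K subunits among the listed genes, Pik3r3 fell, and Pik3r1 and Pik3ca did not pass. Pik3r3, whose product is a short regulatory subunit that lacks the N-terminal domains of the main one, read 10.31, 10.49 and 10.01 in control and 9.51, 9.44 and 9.39 in LCM. The controls spread more widely (10.27 ± 0.24, SD, n = 3) than the LCM arrays (9.45 ± 0.06, SD, n = 3), yet the nearest arrays of the groups were 0.50 apart. Pik3r3 fell by 0.82 on the log2 scale, or 1.77-fold (standard error 0.12, 95% confidence interval -1.11 to -0.53, adjusted p = 0.0164 from limma). This was the largest change among the 8 genes. Its adjusted p was 0.0147 and 0.0178 without control replicates 2 and 3, but 0.0685 without control replicate 1 and 0.0674, 0.0817 and 0.0862 without LCM replicates 1, 2 and 3.

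Pik3r1, which encodes the main regulatory subunit and its shorter forms, read 11.34, 11.70 and 11.44 in control and 11.05, 11.06 and 10.84 in LCM. The groups did not overlap, with 0.28 between them. The log2 change was -0.51 (1.42-fold lower, standard error 0.11, 95% confidence interval -0.77 to -0.24), and the adjusted p of 0.0541 from limma did not pass. It passed without control replicate 2 (adjusted p = 0.0429) but not when any other single array was left out (adjusted p between 0.0845 and 0.205). Control replicate 2 was the highest of the controls for both Pik3r1 and Pik3r3. The array row reads Pik3r1 as a whole, so its long and short products were not separated here.

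Pik3ca, the catalytic subunit, read 10.03, 10.01 and 9.95 in control and 10.26, 10.20 and 10.22 in LCM. The arrays of each group lay close together, and every LCM array was higher. The log2 change of 0.23 (1.17-fold, standard error 0.07, 95% confidence interval 0.07 to 0.39) did not pass, at an adjusted p of 0.112 from limma and of 0.0681 to 0.311 when a single array was left out.

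**Figure D2:**
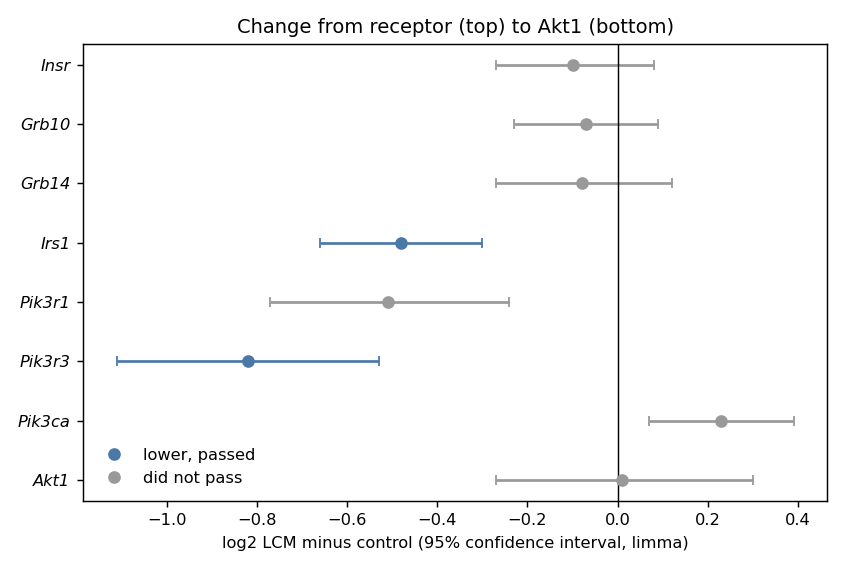
Log2 difference (LCM minus control) of each measured gene with its 95% confidence interval from limma, ordered from the receptor and its inhibitory adaptors at the top to Akt1 at the bottom; blue marks genes that passed and grey those that did not. Irs1 at -0.48 and Pik3r3 at -0.82 are the genes marked blue, and Pik3r1 at -0.51 did not pass.

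Within each array, the difference between related genes was compared next, so that a shift common to the array drops out. Only its change between groups was read, because levels of different rows are not comparable. Pik3ca minus Pik3r1 was -1.32, -1.69 and -1.48 on the control arrays and -0.79, -0.86 and -0.62 on the LCM arrays, a rise of 0.74 (standard error 0.13). Pik3r3 minus Pik3r1 was -1.03, -1.21 and -1.43 in control and -1.54, -1.62 and -1.46 in LCM, a change of -0.32 (standard error 0.12). In this pair control replicate 3 came close to LCM replicate 3, although the groups did not overlap. Grb14 minus Grb10 overlapped between the groups, with a change of -0.01 (standard error 0.08). The exact permutation test, two-sided, gave p = 0.1 for each of the first pairs and p = 1.0 for the last, and adjusted over the 3 pairs p = 0.15, 0.15 and 1.0. With 3 arrays against 3, the smallest p the exact permutation test can give is 0.1, so none of the pairs could pass.

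**Figure D3:**
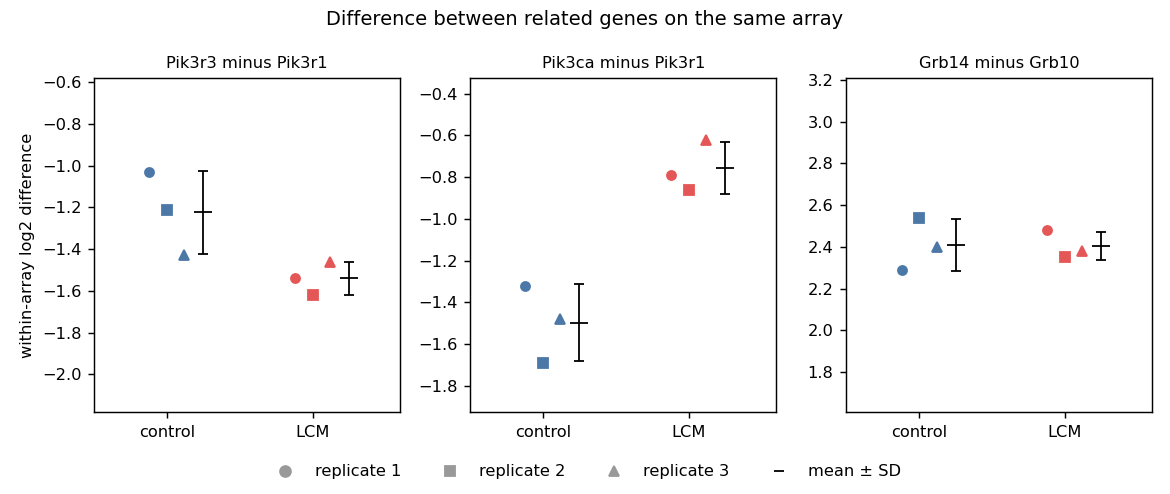
Within-array log2 difference between related genes on each array, for control (blue) and LCM (red), with a marker shape per replicate number and the mean ± SD (n = 3) in black. Pik3ca minus Pik3r1 moved from a mean of -1.50 to -0.76, Pik3r3 minus Pik3r1 from -1.22 to -1.54, and Grb14 minus Grb10 from 2.41 to 2.40.

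At the end of the path, Akt1, the kinase that PIP3 recruits, read 10.84, 10.50 and 10.93 in control and 10.73, 10.70 and 10.87 in LCM. Control replicate 2 was the low array, and the LCM values fell inside the range of the controls. The log2 change was 0.01 (95% confidence interval -0.27 to 0.30, adjusted p = 0.971 from limma), but it turned to -0.04 when array medians were set equal. Without control replicate 2 it was -0.12.

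The promoters of the 4 genes whose groups did not overlap are shown to give the sequence at their starts. Each runs from 250 bases before to 50 after a transcription start, 5′ to 3′ on the gene's strand, as listed by RefSeq for GRCm38.p6. For Pik3r3 and Pik3r1, which have 3 and 2 listed starts, the outermost is shown. Capitals mark matches to ACGTG on either strand, the core that hypoxia-inducible factors bind, which also lies inside the E-box CACGTG.
Irs1, chr1:82291390-82291689, minus strand: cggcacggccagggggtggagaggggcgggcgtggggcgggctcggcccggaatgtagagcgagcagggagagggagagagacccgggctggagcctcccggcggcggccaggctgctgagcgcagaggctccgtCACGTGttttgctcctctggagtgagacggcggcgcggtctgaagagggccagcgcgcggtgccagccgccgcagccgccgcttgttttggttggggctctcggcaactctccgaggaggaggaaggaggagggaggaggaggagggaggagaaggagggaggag
Pik3r1, chr13:101768168-101768467, minus strand: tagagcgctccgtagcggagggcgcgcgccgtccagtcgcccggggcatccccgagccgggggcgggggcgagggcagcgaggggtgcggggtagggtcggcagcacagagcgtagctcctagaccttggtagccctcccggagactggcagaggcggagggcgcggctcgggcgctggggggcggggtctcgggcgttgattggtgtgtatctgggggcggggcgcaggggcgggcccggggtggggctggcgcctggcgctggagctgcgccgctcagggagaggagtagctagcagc
Pik3r3, chr4:116221166-116221465, plus strand: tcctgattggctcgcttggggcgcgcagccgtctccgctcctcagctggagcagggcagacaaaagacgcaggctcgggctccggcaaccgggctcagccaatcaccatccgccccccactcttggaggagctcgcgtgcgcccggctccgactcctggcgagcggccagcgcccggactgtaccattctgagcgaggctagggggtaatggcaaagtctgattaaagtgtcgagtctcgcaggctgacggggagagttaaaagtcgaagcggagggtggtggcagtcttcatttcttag
Pik3ca, chr3:32396815-32397114, plus strand: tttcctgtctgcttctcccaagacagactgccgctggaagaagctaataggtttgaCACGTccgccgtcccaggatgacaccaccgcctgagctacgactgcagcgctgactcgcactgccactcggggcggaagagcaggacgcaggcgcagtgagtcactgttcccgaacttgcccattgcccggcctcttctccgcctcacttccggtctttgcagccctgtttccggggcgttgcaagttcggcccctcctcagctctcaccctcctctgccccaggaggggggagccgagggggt
Of the 10 listed genes, 9 had a promoter in the RefSeq table, at 17 starts in all, and Insr is named only. Irs1 and Irs2 each hold the full E-box, which matches ACGTG on both strands, and Pik3ca and Akt2 hold a single match, so that 4 of the 17 promoters matched, beside 19.6% of 32851 promoters of the same length. GTAAACA, a sequence that FoxO factors bind, was found on either strand in 1 of the 17 (Akt1) and in 3.65% of all promoters. TGATGNAA, the composite site of C/EBP and ATF factors, was found in 1 of the 17 (Akt2) and in 3.97% of all promoters. The printed promoters of Pik3r1 and Pik3r3 hold none of these motifs. A match describes the sequence and does not show that a factor binds there.

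The rest of the pathway was read from 8 lists, which together hold 105 measured genes beside the 8 above. Of these, 10 rose and 3 fell, or 12.4%, beside 4.26% of all genes, and the median log2 change was -0.01. With array medians set equal, 6 rose and 4 fell. The 4.26% counts dim genes as well. Among the 7430 genes at or above the median level, tested on their own, 495 rose and 396 fell. Of the pathway genes, 14 rose and 5 fell in that test. It leaves out the dim genes among the 105, so these counts give no share of the 105. In the main test most of the 105 genes stayed short of the threshold, and those that passed lay in 5 of the 8 lists. In none of the lists of PI3K subunits, kinases that act on Akt and GLUT4 traffic did a gene pass.

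Among ligands, receptors and adaptors, Igf1r and Dok1 rose and Igf1 fell, of 15 measured, beside 2.29% of all genes higher and 1.97% lower. Igf1r, the IGF1 receptor and closest relative of the insulin receptor, read 9.31, 9.22 and 9.15 in control and 9.69, 9.63 and 9.84 in LCM. It rose 1.41-fold (log2 change 0.49, standard error 0.09, adjusted p = 0.0256 from limma), whereas Insr had the change of -0.10 given above. Igf1, a ligand of that receptor, read 9.64, 9.82 and 9.58 in control and 9.21, 9.19 and 9.03 in LCM and fell by 0.53 (log2, adjusted p = 0.0263 from limma). Dok1, a docking protein that dampens signals of tyrosine kinases, rose 1.51-fold (adjusted p = 0.0324 from limma). Dok1 did not pass with repeated quantile normalization or with array medians set equal (adjusted p = 0.0537 and 0.0529 from limma). Of the 15 genes, these 3 included, 4 lay wholly higher in LCM and 4 wholly lower. Over all genes, 12.8% lay wholly higher and 14.7% wholly lower. Sh2b2, an adaptor that binds the insulin receptor, had a log2 change of -0.25 (adjusted p = 0.148 from limma) and Irs3, an IRS protein that mice have, one of -0.01.

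Of 12 other PI3K subunits and regulators, none passed at an adjusted p under 0.05 from limma, and 1 was under 0.05 unadjusted, Pik3ip1, where 19.6% of all genes were. Pik3ip1, an inhibitor of PI3K at the membrane, read 9.13, 8.75 and 9.02 in control and 9.37, 9.31 and 9.53 in LCM (log2 change 0.44, adjusted p = 0.0875 from limma). Pik3r2, the remaining widely expressed regulatory subunit, read 9.29, 8.82 and 9.37 in control and 9.04, 8.99 and 9.37 in LCM. Its groups overlapped, and its interval of -0.42 to 0.36 was wide. Pik3cb and Pik3cd, other catalytic subunits of class IA, had log2 changes of 0.03 and 0.02, both of which turned negative with array medians set equal. Pik3c3, the class III kinase of autophagy and vesicle traffic, had a log2 change of 0.13 (adjusted p = 0.349 from limma), and the study picked it from these arrays as well.

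Among 7 genes of the kinases that phosphorylate Akt, PDK1 and mTORC2, and related mTOR genes, none passed in limma, and 3 were lower at an unadjusted p under 0.05, where 10.3% of all genes were. Mapkap1, a subunit of mTORC2, read 10.30, 10.24 and 10.19 in control and 9.97, 9.95 and 9.98 in LCM (log2 change -0.27, adjusted p = 0.0767 from limma). Prr5, another subunit, had a log2 change of -0.35 and Mtor one of -0.17 (adjusted p = 0.171 and 0.232 from limma). Rictor, the scaffold of the complex, lay at 0.17 (adjusted p = 0.322 from limma). Pdpk1, which encodes PDK1, lay at -0.14, with overlapping groups.

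Of 17 genes that brake insulin signalling, Trib3 alone passed, where 4.26% of all genes passed. Trib3, a pseudokinase that binds Akt and is induced by cell stress, read 9.91, 9.46 and 10.01 in control and 11.25, 11.22 and 11.65 in LCM. It rose 3.00-fold (log2 change 1.58, standard error 0.17, adjusted p = 0.00738 from limma), and the study picked it from these arrays as well. Inppl1, a phosphatase that removes PIP3, had a log2 change of 0.27 with no overlap (adjusted p = 0.0841 from limma). Trib1 and Inpp4b lay at -0.23 and 0.16 (adjusted p = 0.249 and 0.287 from limma). Ptpn1, the phosphatase that acts on the insulin receptor, and Socs3, which blocks IRS proteins, lay at -0.13 and 0.23 and did not pass (adjusted p = 0.370 and 0.369 from limma).

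In a list of 13 measured substrates of Akt and their partners, Tsc1 and Foxo3 rose, beside 2.29% of all genes. With array medians set equal, neither passed (adjusted p = 0.0619 for Tsc1 and 0.0554 for Foxo3 from limma). Tsc1, which holds back mTORC1 together with the Akt substrate TSC2, read 8.81, 8.84 and 8.76 in control and 9.10, 9.22 and 9.28 in LCM (1.31-fold, adjusted p = 0.0372 from limma). Foxo3 read 9.33, 9.53 and 9.25 in control and 9.81, 9.76 and 9.97 in LCM (1.39-fold, adjusted p = 0.0446 from limma). Foxo1, the main FoxO factor of fat cells, had a log2 change of -0.08, and Pde3b, the phosphodiesterase through which insulin restrains lipolysis, one of -0.18 (adjusted p = 0.331 from limma). Of 13 genes of GLUT4 and its traffic none passed in limma, and 1 was under 0.05 unadjusted, Rhoq, again beside 19.6% of all genes. Rhoq, a small GTPase of that traffic, had a log2 change of 0.32 (adjusted p = 0.0532 from limma). Slc2a4, the transporter itself, read 10.73, 10.08 and 10.96 in control and 10.55, 10.75 and 10.70 in LCM, so the LCM values lay within the wide range of the controls.

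Genes downstream of the pathway moved in both directions. Of 17 genes that FoxO factors raise, 3 rose and 2 fell, beside 2.29% of all genes higher and 1.97% lower. Gabarapl1, of autophagy, read 9.47, 9.10 and 9.39 in control and 10.30, 10.23 and 10.39 in LCM and rose 1.99-fold (adjusted p = 0.00761 from limma). Cdkn1b, the cell cycle inhibitor p27, rose 1.36-fold (adjusted p = 0.0286 from limma). Trp53inp1, a stress protein of autophagy, also rose, with a log2 change of 0.33 (adjusted p = 0.048 from limma). Trp53inp1 did not pass with repeated quantile normalization or with array medians set equal (adjusted p = 0.0548 and 0.0927 from limma). Pck1, the enzyme that insulin represses and that fat cells use to make glycerol phosphate, read 10.28, 10.43 and 10.33 in control and 9.27, 9.37 and 8.85 in LCM and fell by 1.18 (log2, adjusted p = 0.00886 from limma). Sesn1, a stress protein that restrains mTORC1, fell by 0.34 (log2, adjusted p = 0.0447 from limma).

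Of 11 genes that insulin raises, Slc2a1 and Hk2 rose, beside 2.29% of all genes. Both are also genes of the hypoxia response, as is Vegfa on the same list, which did not pass. A part of hypoxia in these changes was not tested. Slc2a1, the basal glucose transporter GLUT1, read 11.37, 10.89 and 11.57 in control and 12.33, 12.49 and 12.53 in LCM (2.25-fold, adjusted p = 0.0143 from limma). Hk2, the hexokinase of insulin-responsive tissues, read 11.08, 10.79 and 11.17 in control and 11.84, 11.83 and 11.90 in LCM (1.79-fold, adjusted p = 0.0104 from limma). Srebf1 and Fasn, through which insulin drives fatty acid synthesis, had log2 changes of -0.06 and -0.27 and did not pass. Vegfa and Lpl lay at 0.27 and -0.17 (adjusted p = 0.115 and 0.205 from limma).

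**Figure D4:**
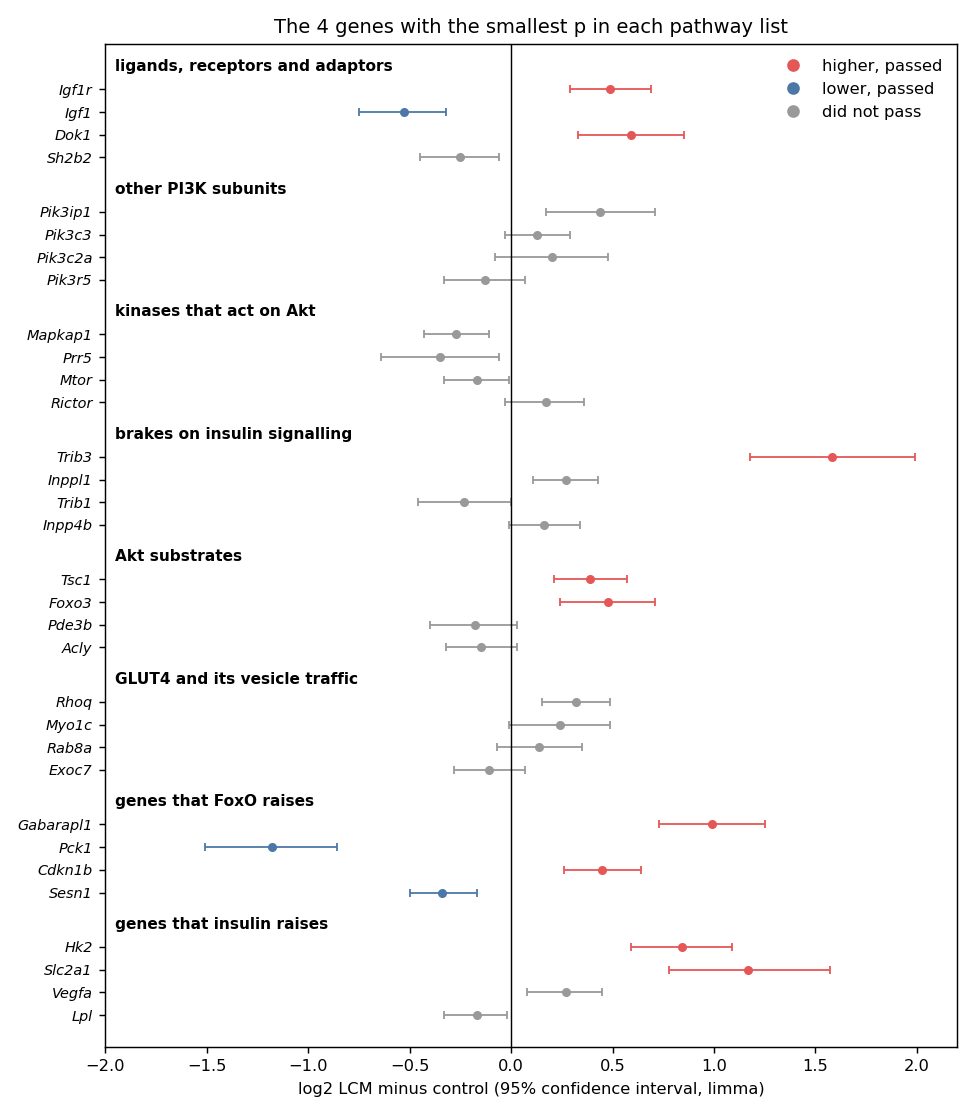
Log2 difference (LCM minus control) with its 95% confidence interval from limma for the 4 genes with the smallest p in each of 8 pathway lists; red marks genes that rose, blue those that fell and grey those that did not pass. Trib3 at 1.58 and Pck1 at -1.18 lie farthest from 0, and the lists of PI3K subunits, kinases that act on Akt and GLUT4 traffic are grey throughout.

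The pathway calls differed in how often they passed when a single array was left out. Trib3 and Pck1 passed whichever array was left out, Gabarapl1 passed in 5 of the 6 subsets (adjusted p = 0.0529 without LCM replicate 3) and Hk2 in 3. Slc2a1, Dok1 and Igf1 passed in 2 of the 6. Igf1r, Tsc1, Foxo3, Cdkn1b, Trp53inp1 and Sesn1 passed in 1 of the 6. Without control replicate 2 all 13 genes passed. Leaving out control replicate 1 kept 4 of the 13 and control replicate 3 kept 7. Leaving out LCM replicates 1, 2 and 3 kept 3, 3 and 2. Over all genes the calls in these subsets ranged from 39 to 680 higher and from 21 to 652 lower. With all arrays 341 genes were higher and 292 lower, so the counts of pathway genes moved along with those of all genes.

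The genes most like Irs1 and Pik3r3 over the 6 arrays were looked up among 7430 genes at or above the median level, as a description. Fgfrl1, Hlcs and Gpx1 followed Irs1 most closely, with Pearson's r of 0.998, 0.995 and 0.994, and log2 changes of -0.38, -0.46 and -0.37. Rnf128, Arxes1 and Arhgap24 followed Pik3r3 at r of 0.997, 0.995 and 0.995. Their log2 changes were -0.17, -1.48 and -0.93, so genes of the same profile differed widely in size of change. All these correlations are over the same 6 arrays, which fall into the groups compared.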

How the data were processed

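The study grew 3T3-L1 adipocytes in LCM or in regular media and hybridized 3 cultures per group to Affymetrix arrays, which the methods name GeneChip Mouse Gene ST. The deposited log2 values were made by the authors with RMA, a method that subtracts background, quantile-normalizes the arrays and combines the probes of each transcript. The sources used here give neither its version and settings nor the genome build. Of 23332 rows, 14996 named a single gene in the platform annotation, 1019 named several and 7317 had none listed. The row with the highest mean over the 6 arrays stood for a gene, which left 14860 genes. The test was limma (version 3.58.1 in R 4.3.3; two-sided moderated test from lmFit and eBayes, no block), with Benjamini-Hochberg adjustment over all genes and a threshold of 0.05. The same fit was tested on simulated data. The 3 pairs of related genes were compared with an exact permutation test. P-values measure the spread between these cultures, and the number of arrays limits the precision.

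Named genes are the members, the 4 genes with the smallest p of each of 8 pathway lists, and for each member that passed the 3 genes most like it over the arrays. Pik3r2, Pik3cb, Pik3cd, Irs3, Pdpk1, Ptpn1, Socs3, Foxo1, Slc2a4, Srebf1, Fasn and Trp53inp1 were added after their values were seen. The members and lists were chosen with earlier results of these data known. Alternatives were other row choices, filters on dim genes, repeated quantile normalization, median centring, a variance trend, a robust prior, array weights and a replicate block. Further ones were a t-test, paired as the methods state or unpaired, and each array left out in turn. Promoters came from RefSeq (GRCm38.p6). Python 3.11.15 with pandas 2.3.3 and matplotlib 3.10.9 made the tables and figures.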

Additional observations from a re-analysis of the deposited data

How the results depend on the processing

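Counts are at an adjusted p under 0.05. Without one array at a time, the members of the path from Insr to Akt1 called lower ranged from 0 to 3 (2 with all arrays), the other pathway genes called higher from 1 to 12 (10 with all arrays) and lower from 1 to 5 (3 with all arrays), and all genes called higher from 39 to 680 (341 with all arrays) and lower from 21 to 652 (292 with all arrays), with the highest counts without control replicate 2. With the replicate number as a block, 1 member was lower, 5 pathway genes were higher, and 173 genes in all were higher and 151 lower. Irs1 did not pass with this block (adjusted p = 0.056 from limma). Deviations of same-numbered arrays correlated at -0.29, 0.071 and -0.095, and those of other-numbered arrays between -0.244 and 0.353. With 3 arrays per group, these values cannot show whether the numbers pair the cultures. When all 23332 rows were tested, 0 members were lower, 4 pathway genes were higher and 1 lower, and 173 rows, with or without a gene name, were higher and 102 lower. With array weights, 1 member was higher (Pik3ca), 7 pathway genes were lower, and 889 genes were higher and 975 lower. With array medians set equal, 6 pathway genes were higher. Among genes at or above the median level, 5 pathway genes were lower. An unpaired t-test called 0 members and 0 pathway genes after Benjamini-Hochberg adjustment, and 104 genes higher and 66 lower. Paired by replicate number, the form the methods give for comparing groups, the t-test called 0 genes in either direction. At an unadjusted p under 0.05 the unpaired test found 1 member higher and 3 lower, beside 8.26% and 9.26% of all genes, and the paired test the same counts beside 5.98% and 5.87%. The log2 change of Akt1 turned to -0.038 with array medians set equal and to -0.105 with array weights, and ranged from -0.117 to 0.099 without one array. Grb14 minus Grb10 ranged from -0.068 to 0.058 without one array. The cause of these changes was not tested. The other members kept their direction under the alternatives run. Of 12 alternatives that kept all arrays, Irs1 passed in 8, Pik3r3 in 9 and Pik3r1 in 5. Small shifts in dim genes such as Grb10 are limited by signal over background.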
